A study of Danio rerio with 24 samples.

Results

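The alx4a locus was taken as all CpGs between positions 26610001 and 26700000 of zebrafish chromosome 7 in the danRer10 build. This window of 90 kb was set by position, but the locus was chosen with earlier results of these data known. It held 1241 of the 23256360 CpGs listed in at least 1 of 4 whole-genome bisulfite sequencing (WGBS) libraries, and 994 of the 16909511 CpGs with at least 5 reads in all 4. These 994 CpGs were grouped in 500-bp tiles, of which 124 of the 180 in the window had at least 3 such CpGs and were tested, out of 1742304 tested across the genome. The study followed zebrafish neural crest cells (NCCs) as they become pigment cells. Early NCCs (15 somites) and late NCCs (24 hpf) were GFP-positive cells of Tg(crestinA:EGFP) embryos, in which an element of the crestin promoter drives EGFP in neural crest. Melanophores and iridophores came from larvae of the melanophilin mutant mlphaj120 at 4 to 5 dpf, purified by density gradient and sorting. Each library combined 2 replicates, so no value has a spread between replicates and every test compares the reads of 2 libraries, not 2 replicated conditions. Cell type, fish strain, age and way of isolation change together from NCCs to pigment cells and cannot be told apart. WGBS carries no marker gene levels, so the sorted cell types were not checked against markers here.

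alx4a encodes an aristaless-like homeodomain transcription factor. Its mammalian counterpart ALX4 is known for its part in skull and limb patterning, and the zebrafish study asked whether the gene has a part in forming iridophores, the pigment cells that reflect light through purine crystals. Methylation of cytosine at CpG sites is the default in vertebrate genomes. CpG-rich stretches at the starts of developmental genes are usually kept free of it, and distal regulatory elements often lose it in the cell types that use them. In the GRCz12tu gene table alx4a lies between ext2, which encodes a heparan sulfate polymerase subunit, and the uncharacterised long non-coding RNA LOC141375370, with caprin1a, which encodes an RNA-binding protein, next to that. The gene's start site and exons were not placed in the danRer10 window, so no tile is assigned to an exon, intron or promoter. The study gave alx4a attention in part because many regions that lose methylation or gain accessibility had been called near it in the same study, the former from these libraries. The falls in iridophores below are therefore a description of the locus and not independent evidence for it.

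Bisulfite sequencing scores each cytosine of a read as methylated or not, and the level of a CpG is the percentage of its reads that are methylated. A tile's level is the mean over its CpGs. Over the 994 CpGs the mean level was 82.9% in early NCCs, 80.6% in late NCCs, 74.5% for melanophores and 62.5% for iridophores. Where 4 values follow each other without names, they stand for these libraries in this order. Across the genome, with the same minimum of 5 reads, the mean level was 85.1%, 84.2%, 81.2% and 80.8%. The locus was thus near the genome in NCCs, and its iridophore library was the furthest below. As a share of all reads, 87.4% were methylated in early NCCs (95% Wilson interval 87.0 to 87.8), 82.8% in late NCCs (82.5 to 83.2), 75.4% in melanophores (75.0 to 75.8) and 61.6% in iridophores (61.0 to 62.1). Wilson intervals cover counting error only, and since a read over several CpGs counts at each they are too narrow. Mean coverage of a CpG in the window was 26.6, 34.3, 37.9 and 27.4 reads in the same order, against 24.0, 30.3, 35.2 and 25.2 across the genome.

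From NCCs to pigment cells highly methylated CpGs became fewer and intermediate ones more common. Levels over 80% were found at 832 of the 994 CpGs in early NCCs, 796 in late NCCs, 700 for melanophores and 488 for iridophores. These were 83.7%, 80.1%, 70.4% and 49.1% of CpGs, against 82.5%, 82.2%, 77.3% and 76.1% across the genome. Intermediate levels, from 20% to 80%, rose from 2.92% of CpGs in early NCCs and 6.34% in late NCCs to 15.4% for melanophores and 26.7% for iridophores. Across the genome these shares were 9.55%, 9.85%, 14.1% and 15.0%, so NCCs held fewer intermediate CpGs in the window than in the genome and iridophores held more. CpGs below 20% numbered 133, 135, 141 and 241. As shares they were 13.4%, 13.6%, 14.2% and 24.2%, against 7.97%, 7.98%, 8.59% and 8.88% across the genome, so the window held more of them in every library. No CpG of the window was at 80% or more in both NCC libraries and at 5% or less in both pigment cell libraries.

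**Figure D1:**
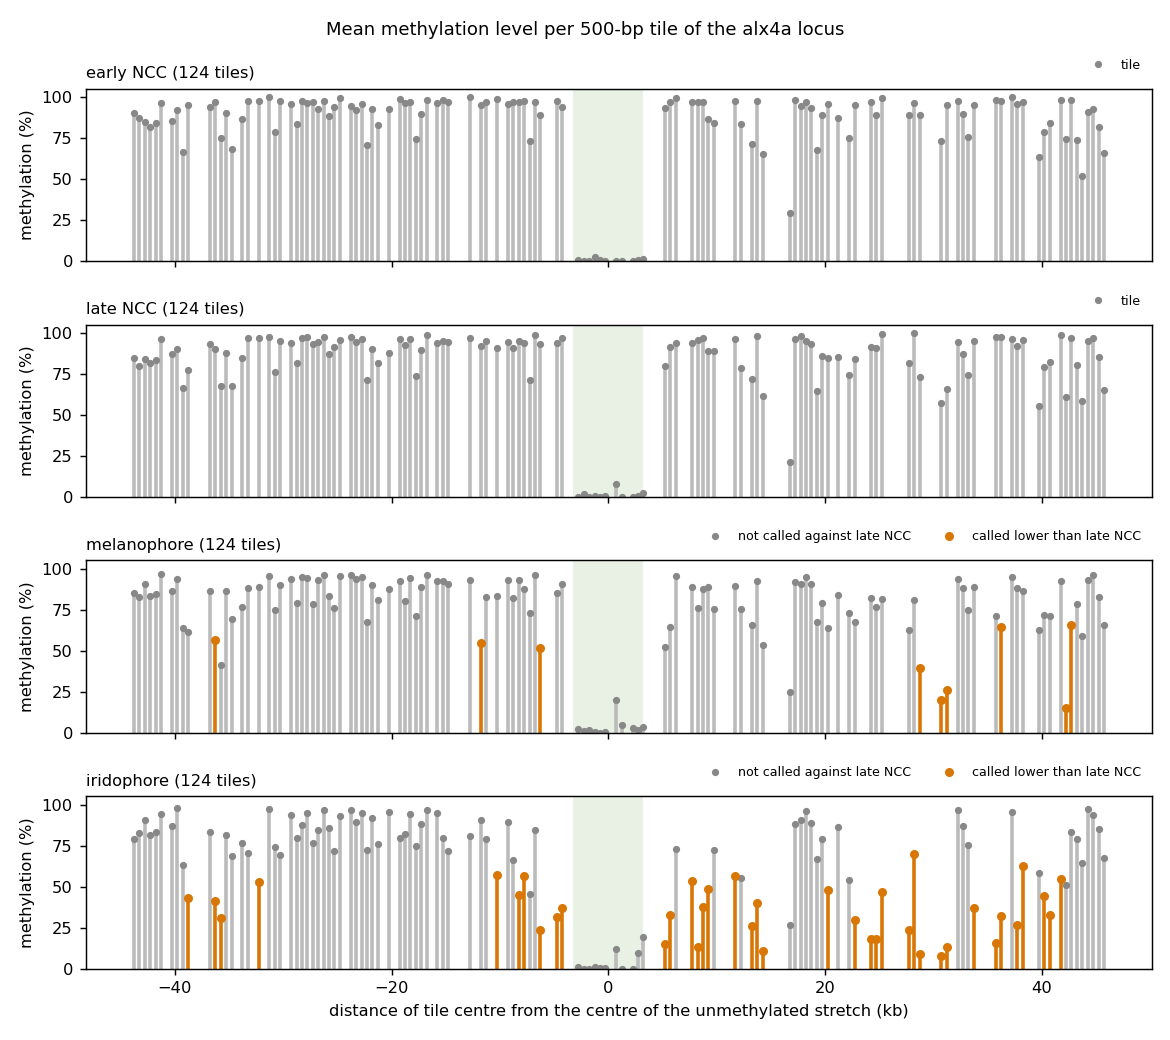
Mean methylation level (%) of the 124 tested 500-bp tiles of the alx4a locus in each library, against the distance (kb) of the tile from the centre of the unmethylated stretch, which is shaded. Orange marks the tiles called lower than in late NCCs, 9 for melanophores and 38 for iridophores, and all other tiles are grey.

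The centre of the window held a long unmethylated stretch in every library. It was found as the longest series of neighbouring CpGs at 50% or less in all 4 libraries and ran from 26650884 to 26657159, 6276 bp with 84 used CpGs. CpGs were denser here, at 2.34 per 100 bp counting all 147 listed ones, than in the rest of the window at 1.31 per 100 bp. Its mean level was 1.19% in early NCCs, 0.892% in late NCCs, 2.49% for melanophores and 2.97% for iridophores. Outside it, the mean over 910 CpGs was 90.4%, 88.0%, 81.1% and 68.0%. With so little methylation in NCCs the stretch had no room for a fall, so the drop in iridophores could lie only outside it. Of its 84 CpGs, 74 were at exactly 0% in early NCCs, 68 in late NCCs, 57 for melanophores and 60 for iridophores. Tiles below 20% in all 4 libraries numbered 10, in a run of 6 from 26651001 to 26654000, a single tile at 26655001 and a run of 3 from 26656001 to 26657500, all overlapping the stretch.

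At the right edge of the stretch a few CpGs carried more methylation in iridophores than in the other libraries. Tile chr7:26656501-26657000 stood at 0.63% in early NCCs, 0.39% in late NCCs, 1.64% for melanophores and 9.81% for iridophores, on 233, 398, 424 and 272 reads. Iridophores were above late NCCs (adjusted p = 5.25e-07 over all tiles, two-sided Fisher's exact test on summed reads with Benjamini-Hochberg adjustment, as for all adjusted p values here). The next tile, chr7:26657001-26657500, stood at 1.32%, 2.56%, 3.49% and 19.4%, and its iridophore level was 16.84 percentage points above late NCCs (exact test, adjusted p = 0.000273). Both rises were under the 30 points that a call asks for, and they leaned on single CpGs. Without the CpG of largest difference, the first was 5.14 points (exact test, adjusted p = 0.00411) and the second 10.2 points (adjusted p = 0.105), and at the mean reads per CpG neither had an adjusted p under 0.05. In the first tile that CpG, at 26656788, was at 44% in iridophores on 25 reads. Across these 2 tiles, 8 of 13 CpGs were highest in iridophores, and the last CpG of the stretch, at 26657159, was at 36.7% in iridophores on 30 reads against 0% in both NCC libraries on 15 and 23 reads. The next used CpG, at 26658101, was high in all 4 libraries at 91.4%, 78.8%, 70.2% and 81.8%. The left edge showed no such rise, with tile chr7:26651001-26651500 at 1.02%, 0%, 2.66% and 0.84%.

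**Figure D2:**
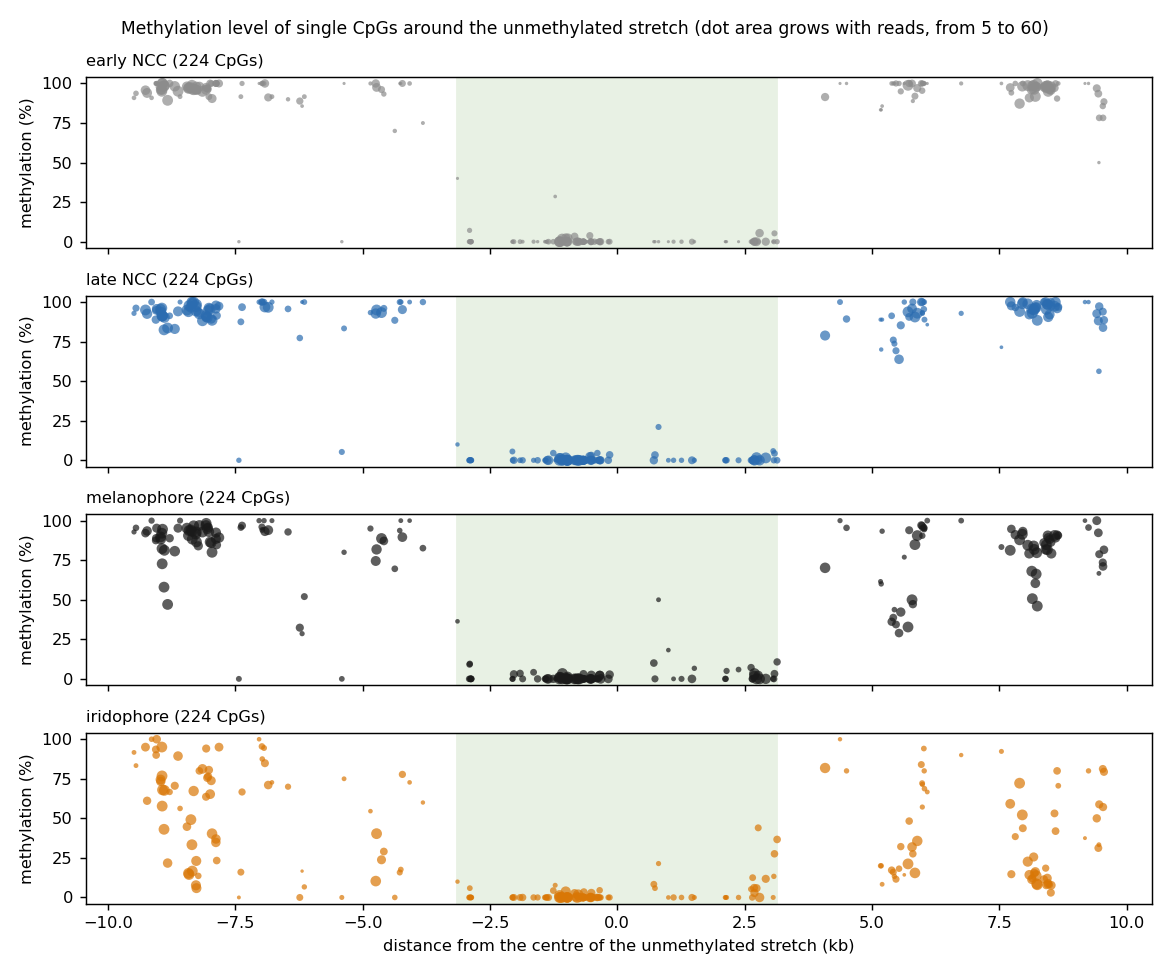
Methylation level (%) of the 224 CpGs with at least 5 reads in all 4 libraries that lie within 10 kb of the centre of the unmethylated stretch (shaded), one panel per library. Inside the shading most CpGs sit at or near 0% in all libraries, with a few raised ones in the middle, at the left border and, in iridophores, at the right edge, and CpGs on both sides spread downwards in iridophores.

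Between early and late NCCs no tile of the locus was called. A tile was called where the adjusted p was under 0.01 and the difference at least 30 percentage points. Of the 124 tiles, 0 were lower and 0 higher in late NCCs, where 0.0821% and 0.017% of tiles across the genome were called. An unadjusted p under 0.05 in the exact test was reached by 20 tiles, a count for which no genome share was taken. A fall at an adjusted p under 0.01, without reaching 30 points, was seen in 11 of the 124. Across the genome 1.89% of tiles fell at that adjusted p, whatever the size of the fall. The median difference was −1.35 points, and −0.849 across the genome. The 5 largest falls were in tiles starting at 26685001 (−28.9 points, from 95% to 66.1%, exact test, adjusted p = 3.64e-22), 26615001 (−17.5 points), 26684501 (−16.5 points), 26682501 (−15.8 points) and 26659001 (−13.5 points, exact test, adjusted p = 0.0406). These tiles were lower still in both pigment cell libraries, as described below.

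From late NCCs to iridophores 38 of the 124 tiles were called lower, 30.6%, against 2.65% of tiles across the genome, and 0 were called higher, against 0.0773%. The median difference over all 124 tiles was −7.67 points, and −2.04 across the genome. The 38 tiles had median levels of 96.0% in early NCCs, 91.8% in late NCCs, 76.4% for melanophores and 34.8% for iridophores. Their change from late NCCs had a median of −51.5 points and ranged from −82.3 to −30.3. Iridophores were the lowest library in all 38, which the call itself favours, and the early NCC level was at least 30 points above iridophores in 37. Some methylation was left in each, since 30 of the 38 tiles were below 50% in iridophores, 9 were below 20% and the lowest was at 7.85%. Of their 273 CpGs, 208 fell by at least 30 points. The called tiles that changed least started at 26643501 (−33.7 points), 26692001 (−33.3) and 26682001 (−30.3), and just short of a call were those at 26620501 (−26.5), 26623501 (−26.2) and 26646501 (−25.4).

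The falls were short, and CpGs that stayed high in iridophores lay between many of them. Others were parted by tiles too thinly covered to test or by CpGs low in every library. Between the series ending at 26687687 and the one starting at 26689302, the only used CpG, at 26688208, was at 0% in all 4 libraries. Allowing a gap of 1 tile, the 38 tiles formed 20 runs, 8 of them a single tile. The other 75 tested tiles outside the stretch changed from late NCCs to iridophores by a median of −2.17 points, the largest fall being −26.5 points. A small change is partly built in, since tiles with larger falls were called. Since a read over several CpGs counts at each, the test was also made with each tile counted at its mean reads per CpG. It then called 25 tiles, a larger share than across the genome in the same test. Reading CpG by CpG, without the tile grid, 253 of 994 CpGs fell by at least 30 points (25.5%, against 3.99% across the genome) and 4 rose as much (0.402%, against 0.95%). Of the 253, 200 stood in 30 series of 3 or more neighbouring CpGs, with a median length of 172.5 bp and at most 873 bp.

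**Figure D3:**
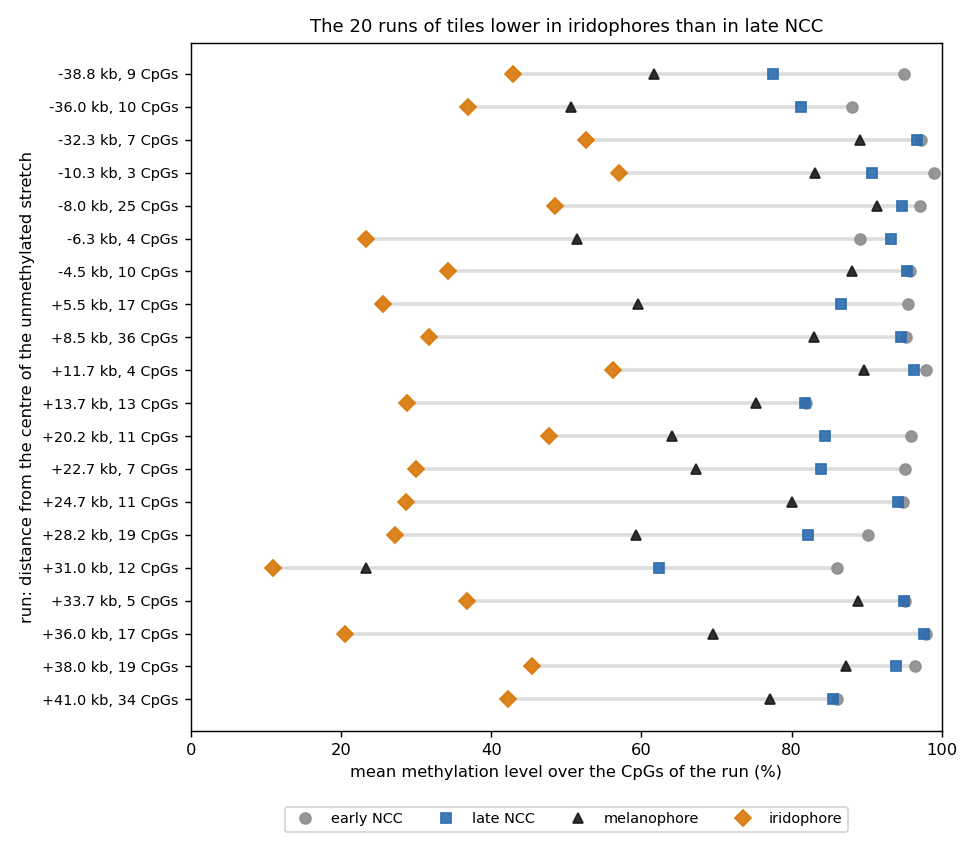
Mean methylation level (%) of each of the 20 runs of tiles called lower in iridophores than in late NCCs, in the 4 libraries, ordered by distance (kb) from the centre of the unmethylated stretch. Iridophores lie lowest in every run, melanophores between them and late NCCs, and the NCC libraries are close together in most runs, with the widest gap in the run at +31.0 kb.

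The largest fall was in tile chr7:26662001-26662500, which had 16 CpGs and stood at 97.0% in early NCCs, 95.8% in late NCCs, 75.9% for melanophores and 13.5% for iridophores, on 992, 1026, 1044 and 744 reads. All 16 CpGs fell by at least 30 points. Their iridophore levels ran from 7.89% at 26662445 to 25.6% at 26662196, while the lowest late NCC level among them was 88.5% at 26662267. The series went past both tile borders, covering 23 CpGs and 654 bp from 26661973 to 26662626. In iridophores the CpG before it, at 26661920, was at 72.2% and the CpG after it, at 26662656, at 80%. The first 2 and the last 2 CpGs of the series lay between these and its low middle, at 52.2% and 43.8% on the left and 53.1% and 41.9% on the right.

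The second was tile chr7:26689501-26690000, which had 12 CpGs and stood at 98.1%, 97.6%, 71.4% and 15.8% (−81.8 points from late NCCs to iridophores, exact test, adjusted p = 2.59e-177). In this tile melanophores were low at 3 neighbouring CpGs only, from 26689864 to 26689903, where they averaged 39.3% against 97.1% in late NCCs and 7.32% in iridophores. Its series of falling CpGs in iridophores was the longest of the window, 17 CpGs over 873 bp from 26689302 to 26690174, and took in 4 of the 5 CpGs of the next tile.

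The other 8 of the 10 largest falls started at 26678001, 26678501, 26659001, 26647501, 26690001, 26691501, 26682501 and 26649001. Tile chr7:26678001-26678500 had 3 CpGs and stood at 97.0%, 91.7%, 82.2% and 18.2% (exact test, adjusted p = 1.23e-23). Its neighbour, chr7:26678501-26679000, stood at 89.0%, 90.8%, 76.8% and 18.1% on 4 CpGs. Both were far lower in iridophores than in melanophores, which had kept more than 75% in each. Tile chr7:26691501-26692000, with 9 CpGs, stood at 95.7%, 91.9%, 88.4% and 26.6%, and tile chr7:26649001-26649500, with 5 CpGs, at 97.4%, 94.1%, 85.4% and 31.6%.

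Tiles with many CpGs rested on more reads. Tile chr7:26645501-26646000, to the left of the stretch, held 17 CpGs on 946, 1264, 1278 and 800 reads, and stood at 96.8%, 94.9%, 93.1% and 44.8% (exact test, adjusted p = 2.29e-171). Its mean joins unlike parts, because 12 neighbouring CpGs from 26645437, in the tile before, to 26645795 averaged 29.0% in iridophores and 92.2% in melanophores, while the next CpG, at 26645816, was at 80% in iridophores. A series of 6 CpGs from 26667372 to 26667606 was at 96.2% in both NCC libraries, 89.0% in melanophores and 12.3% in iridophores, and its neighbours at 26667195 and 26667971 were at 88.2% and 83.3% in iridophores.

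The falls lay mostly to the right of the unmethylated stretch, on the side of the higher coordinates. Of 53 tested tiles there, 28 were called lower in iridophores (52.8%), and of 60 on the left, 10 (16.7%), beside the 2.65% of the genome. Median levels on the right were 93.2% in early NCCs, 89.0% in late NCCs, 76.8% for melanophores and 54.2% for iridophores, and on the left 95.1%, 93.1%, 87.4% and 81.2%. The right side was lower in all 4 libraries, by little in early NCCs and most in iridophores. For melanophores 6 of the 53 tiles on the right were called lower (11.3%) and 3 of the 60 on the left (5.0%), against 2.64% across the genome. These counts are too small to compare the sides. No test was made between the sides, because neighbouring tiles are not independent. On the right the runs began at 26659001, the first tested tile after the stretch, which fell from 93.2% and 79.7% in NCCs to 52.5% in melanophores and 15.2% in iridophores (exact test, adjusted p = 8.71e-24 from late NCCs to iridophores), on 67 to 158 reads. They ended at 26696000. Within that span 17 of 45 tested tiles were not called. These changed by a median of −0.50 points from late NCCs to iridophores, the largest fall being −22.8 points. Their lack of a call itself favours a small change. On the left the called tiles lay in a far group of 4 between 26615001 and 26622000 and a near group of 6 between 26643501 and 26650000.

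From late NCCs to melanophores 9 of 124 tiles were called lower, 7.26%, against 2.64% across the genome, and 0 higher, against 0.0607%. The late NCC library is shared with the iridophore comparison, so the 2 sets of changes are not independent. The median difference was −2.74 points, and −1.50 across the genome. The 9 tiles had median levels of 95%, 90.1%, 51.4% and 31.9% in early NCCs, late NCCs, melanophores and iridophores. At single CpGs, 70 fell by at least 30 points (7.04%, against 3.84% across the genome), and 42 of these stood in 10 series of 3 or more, with a median length of 94.5 bp. Melanophores fell less within the iridophore tiles than iridophores did, which the choice of these tiles by their iridophore fall itself favours. Their change over those 38 tiles had a median of −10.2 points, and 18 of the 38 were above 80% in melanophores. With each tile counted at its mean reads per CpG 5 tiles were called lower in melanophores, and 5 also without the CpG of largest difference in each tile. In each of these 2 settings this was 4.03% of the tested tiles, against 1.81% and 2% across the genome in the same order. These counts are small, and the share was not above the genome in every setting. With a minimum difference of 50 points it was 0%, against 0.79% across the genome. With tiles of 1000 bp it was 2.44%, against 2.18%.

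The 4 lowest melanophore levels among the 9 called tiles were in tiles where late NCCs already stood below early NCCs, with differences of −13.3 to −28.9 points. Tiles chr7:26684501-26685000 and chr7:26685001-26685500 stood together at 86.0% in early NCCs, 62.3% in late NCCs, 23.3% for melanophores and 10.9% for iridophores over 12 CpGs. One of the 12, at 26684534, was at 0% in every library, and the other 11 averaged 93.8%, 68.0%, 25.5% and 11.9%. Tile 26685001 thus had a lower level at each step, with adjusted p in the exact test of 3.64e-22 from early to late NCCs, 4.06e-30 from late NCCs to melanophores and 6.09e-43 from late NCCs to iridophores. The level in iridophores minus that in melanophores was −12.8 points (exact test, adjusted p = 0.0011), short of a call.

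Tile chr7:26682501-26683000 stood at 88.8%, 73.1%, 39.3% and 9.04%, and its 5 CpGs behaved in 2 ways. At 26682746 the levels were 74.4%, 50.6%, 3.57% and 2.67%, so melanophores and iridophores were both low. At 26682778, close by, they were 90.6%, 100%, 84.3% and 10.6%, with iridophores alone low. Tile chr7:26617501-26618000 stood at 96.7%, 90.1%, 56.7% and 41.0%. Its first 2 CpGs, at 26617575 and 26617586, were at 100% in iridophores on 8 and 20 reads, and the other 4 were at 6.67% to 15.4% in iridophores and 30.1% to 44.7% in melanophores. Tile chr7:26647501-26648000 stood at 89.1%, 93.2%, 51.4% and 23.3% on only 56 to 101 reads.

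Set directly against melanophores, iridophores were lower in 27 of 124 tiles, 21.8%, against 0.66% of tiles across the genome, and higher in 2, against 0.534%. The median difference was −3.91 points, and −0.406 across the genome. At the mean reads per CpG 11 tiles were called lower and 0 higher. These were 8.87% and 0% of the tested tiles, against 0.192% and 0.117% across the genome in that setting. Of the 27, 22 lay to the right of the stretch and 5 to the left. The largest difference was in tile 26678001, where the difference was −64.0 points (18.2% and 82.2%, exact test, adjusted p = 1.19e-18), followed by 26662001 at −62.4 points (exact test, adjusted p = 3.51e-151), both described above. At single CpGs, 179 were lower by at least 30 points in iridophores (18.0%, against 1.46% across the genome) and 12 higher (1.21%, against 1.35%).

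**Figure D4:**
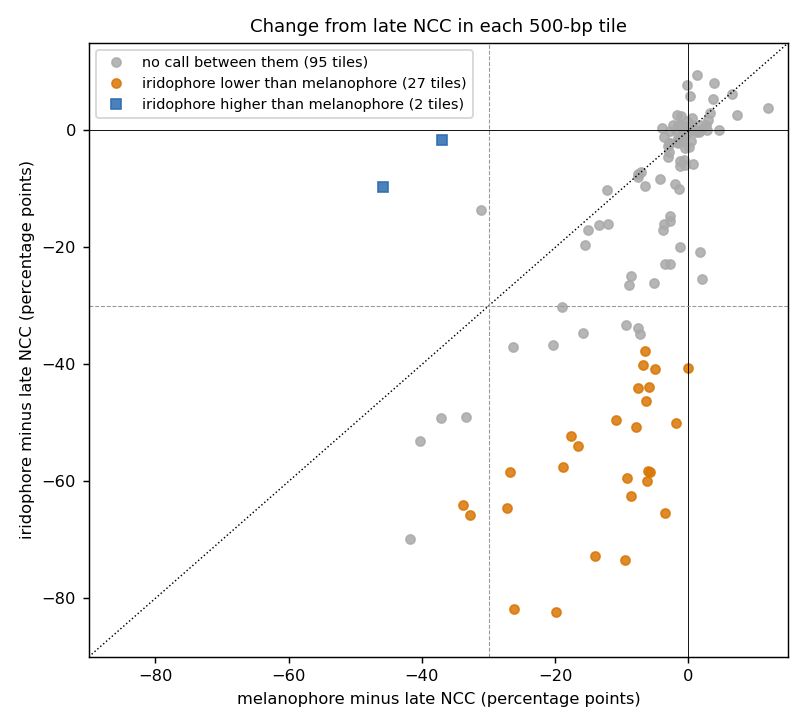
Change from late NCCs (percentage points) in melanophores (horizontal) and iridophores (vertical) for each of the 124 tested tiles, coloured by the test between the pigment cells. Most called tiles lie below the dotted line of equal change, and 2 lie above it. The side of the line on which a called tile lies follows from its call, since both axes use the same late NCC library. Dashed lines mark a fall of 30 points.

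Melanophores held less methylation than iridophores in one place near the right end of the window. Tile chr7:26696001-26696500 had 4 CpGs and stood at 74.2% in early NCCs, 60.9% in late NCCs, 15.0% for melanophores and 51.2% for iridophores, on 108, 126, 169 and 103 reads. Melanophores were below late NCCs (−45.8 points, exact test, adjusted p = 6.77e-24) and iridophores were 36.2 points above melanophores (exact test, adjusted p = 2.55e-12). Its first CpG, at 26696112, was at 0% in all libraries. The next tile, chr7:26696501-26697000, stood at 98.0%, 96.9%, 65.8% and 83.2%, and its iridophore level was 17.4 points above melanophores, short of a call. Across both, 8 neighbouring CpGs from 26696434 to 26696720 averaged 98.5%, 91.1%, 29.5% and 71.6%. The series ended sharply, since the next CpG, at 26696828, was at 97.5%, 97.4%, 96.7% and 95.7%. This was the melanophore series with the most CpGs, 8 over 287 bp.

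The other tile higher in iridophores, chr7:26642001-26642500, rested on little data. It had 3 CpGs and stood at 95.2%, 91.9%, 54.9% and 90.3%, on 36, 92, 81 and 62 reads, and iridophores were 35.4 points above melanophores (exact test, adjusted p = 0.000131). The difference came from 2 close CpGs, at 26642367 and 26642369, where melanophores were at 38.5% and 37.0% on 26 and 27 reads. With CpGs of at least 1 read counted, the change from late NCCs to melanophores was −24.9 points and no longer a call.

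In 40 tiles the level was over 80% in all 4 libraries. Outside the stretch 45 single CpGs were at 5% or less in all 4 libraries, and 36 of these stood next to a CpG over 80% in all 4. They lowered the level of 34 tiles, and with it any difference between libraries. One tile with an intermediate mean in all 4 libraries was chr7:26673001-26673500, with 13 CpGs, at 67.4%, 64.8%, 67.7% and 66.6%. The mean alone does not tell intermediate CpGs from a mix of low and high ones. CpGs at 5% or less in all 4 libraries made up 10.8% of the window, the stretch included, and 5.38% of the genome.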

How the data were processed

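The 4 WGBS libraries cover 1 zebrafish cell type each and combine 2 replicates. Per the study's methods, adapters were cut from the paired reads with Cutadapt, alignment to danRer10 used Bismark, Picard MarkDuplicates took out duplicates and Bismark's extractor with a custom script gave methylation per CpG. Versions are not given in the sources used here. The authors deposited the methylation level of each CpG as a fraction of its reads, given here as a percent, and the number of reads as a raw count. The product of level and reads was never further than 0.0044 from a whole number, which was taken as the methylated reads. The deposited start was taken as counted from 0, so positions here are that start plus 1.

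CpGs with at least 5 reads in all 4 libraries were grouped in 500-bp tiles across the 25 chromosomes, and tiles with at least 3 of them were kept. A tile's level was the mean over its CpGs. Reads summed over CpGs were compared with Fisher's exact test (two-sided), with Benjamini-Hochberg adjustment over all 1742304 tiles. A call needed an adjusted p under 0.01 and a change of 30 percentage points or more. The difference follows the study's methods, which set it together with an unadjusted p limit on smoothed CpGs. Reads over several CpGs count at each, so p values are too small, and they do not cover variation between animals. Of the 180 tiles in the window, 56 were not tested, 5 of them with no CpG listed. Median coverage across the genome was 17, 25, 29 and 21 reads per CpG in early NCCs, late NCCs, melanophores and iridophores, so single CpGs are imprecise.

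Named tiles were the runs of called tiles in iridophores, the 10 largest changes there, the 5 largest in each other comparison, all called rises and all tiles below 20% in all 4 libraries. Runs of single CpGs were added after the values were seen and carry no test. The locus, lists and tests were chosen with earlier results of these data known. Alternatives were other coverage limits, tile sizes, grids, difference limits, CpG minimums, the read share as level, and tests at the mean reads per CpG. The test was checked on simulated data in which the reads of each CpG were drawn independently. That check covers neither reads shared by several CpGs nor variation between replicates. Motifs, the gene's start site and sequences were not analysed here, since no danRer10 genome or annotation was used. ATAC-seq and mRNA-seq samples were not analysed here. Python 3.11.15, numpy 2.4.6, pandas 2.3.3, scipy 1.17.1, numba 0.67.0 and matplotlib 3.10.9 were used.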

Additional observations from a re-analysis of the deposited data

Results flagged for a closer look

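The change from late NCCs differed between the pigment cells in some of the 124 tested tiles, by the direct test of melanophores against iridophores. Lower in iridophores were 27 (21.8%, against 0.66% across the genome), and higher were 2 (1.61%, against 0.534%). Under several alternatives fewer tiles were called in either direction, as given below. In the tile starting at 26678001 iridophores were −64.0 percentage points from melanophores. In the tiles starting at 26642001 and 26696001 they were 35.4 and 36.2 points above melanophores. No group has enough libraries for a search for outlying samples.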

How the results depend on the processing

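No paired analysis was possible because the replicates of each cell type are combined in one library, and for the same reason no replicate could be left out. Of 12 alternatives, 9 keep the tiles of the main grid. In them the 25 largest differences, which fall in 15 tiles, gave 215 values, and 203 kept their call or lack of one. All 215 were in the main direction, which says little. Other difference limits and the mean reads per CpG leave the differences themselves unchanged. The 25 were also picked as the largest in the same data. Tiles too thinly covered for a setting gave no value. Under all 12 alternatives, tiles lower in iridophores than in late NCCs stayed between 16.9% and 36.3% of those tested, above the genome's share under each alternative. With at least 1 read per CpG they were 26.4%, against 2.3% across the genome, and with at least 10 reads 31.7%, against 2.9%. They numbered 21 with a minimum difference of 50 points and 25 with each tile counted at its mean reads per CpG. These 2 settings gave 10 and 11 tiles lower in iridophores than in melanophores, 0 and 5 lower in melanophores than in late NCCs, and 0 and 0 higher in iridophores than in melanophores. A minimum difference of 20 points gave 14 tiles lower in melanophores, and 1 lower in late NCCs than in early NCCs. Tiles of 1000 bp gave 2 lower in melanophores. Without the CpG of largest difference in each tile, an alternative added after seeing the data, 5 were lower in melanophores. The 2 tiles higher in iridophores than in melanophores became 1 with at least 1 read per CpG or with the grid shifted by 250 bp. They became 0 with tiles of 1000 bp, with at least 5 CpGs per tile, and without the CpG of largest difference. Leaving out CpGs at 5% or less in all 4 libraries, also added after seeing the data, left all counts within 1.5 times. Genome shares of the setting are given here only for tiles lower in iridophores than in late NCCs, and above for some other counts. Counts without such a share show only how the number of calls depends on the setting.

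Mean levels of the locus moved by more than counting error but kept their order. In early NCCs, late NCCs, melanophores and iridophores they were 79.5%, 77.8%, 72.4% and 61.2% with at least 1 read per CpG, 85.5%, 83.1%, 76.3% and 63.6% with at least 10, and 87.4%, 82.8%, 75.4% and 61.6% as the share of methylated reads. Depth limits the calls on few reads, since at the mean reads per CpG the falls at 26647501 and 26659001 in iridophores had adjusted p of 0.0171 and 0.0139, no longer calls.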
